A study of Homo sapiens with 4 samples.

Results

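The unfolded protein response is the set of signals by which a cell answers unfolded protein in the endoplasmic reticulum (ER). It is started by membrane proteins of the ER. IRE1, encoded by ERN1, is a kinase and endoribonuclease that cuts a short intron out of XBP1 mRNA, so that the mRNA encodes an active transcription factor. PERK, encoded by EIF2AK3, phosphorylates the initiation factor eIF2-alpha and lowers protein synthesis. ATF6 and its relative ATF6B travel to the Golgi, where the site-1 protease (MBTPS1) and the site-2 protease (MBTPS2) release a transcription factor from each, and CREB3L2 is a further transcription factor of this kind. These 8 genes, with 58 annotated transcripts, were taken by symbol out of 58735 genes and 206601 transcripts in the deposited tables.

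RNA was sequenced from H1299, an established lung cancer line of human origin. Methylparaben, a preservative, was given at 0.5 mM for 48 h in 2 of the libraries, and the other 2 are ethanol controls, for which the labels give no exposure time. Whether replicates were separate cultures is not stated, and p-values here measure only the spread between these libraries, which may be technical. The comparison asks how the sensors and effectors of the response differ between treated and control cells.

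The total count was 3760982 and 2068486 reads in methylparaben libraries 1 and 2, and 2368658 and 2182058 in ethanol libraries 1 and 2. A gene with 0 reads in a library may have a level of up to 0.798 to 1.45 CPM (counts scaled to a common library total), the level of 3 counts. Such limits and all intervals on counts cover counting error only. Among marker genes of the labelled cell type, the mesenchymal gene VIM had 131 and 62 reads in methylparaben and 207 and 157 in ethanol libraries. The other mesenchymal genes were scarcely read, FN1 with 10 and 5 against 7 and 9, and CDH2 with 0 and 0 against 0 and 1. The keratin gene KRT8 had 31 and 22 against 24 and 14, and KRT18 had 27 and 6 against 16 and 5. The lung lineage genes NKX2-1, SFTPB, SFTPC and NAPSA and the epithelial genes EPCAM and CDH1 had 0 in all 4 libraries. The blood markers PTPRC, CD3E, CD14 and CD68 also had 0. In bulk RNA, fewer cells that express a gene and less RNA per cell cannot be told apart.

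The table holds reads only where an exonic base belongs to a single annotated transcript, so each member is read through part of its sequence. That part was 95.1% of the exonic bases of ATF6, 86.8% of ERN1, 74.6% of MBTPS2 and 59.5% of MBTPS1. It was 39.3% of XBP1, 25.0% of EIF2AK3, 18.9% of ATF6B and 13.8% of CREB3L2. The first 4 genes had 1657 to 4886 reads over the 4 libraries and XBP1 had 494, whereas EIF2AK3, CREB3L2 and ATF6B had 25, 7 and 2. The transducer PERK was scarcely measured here, and ATF6B and CREB3L2 had fewer reads still.

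**Figure D1:**
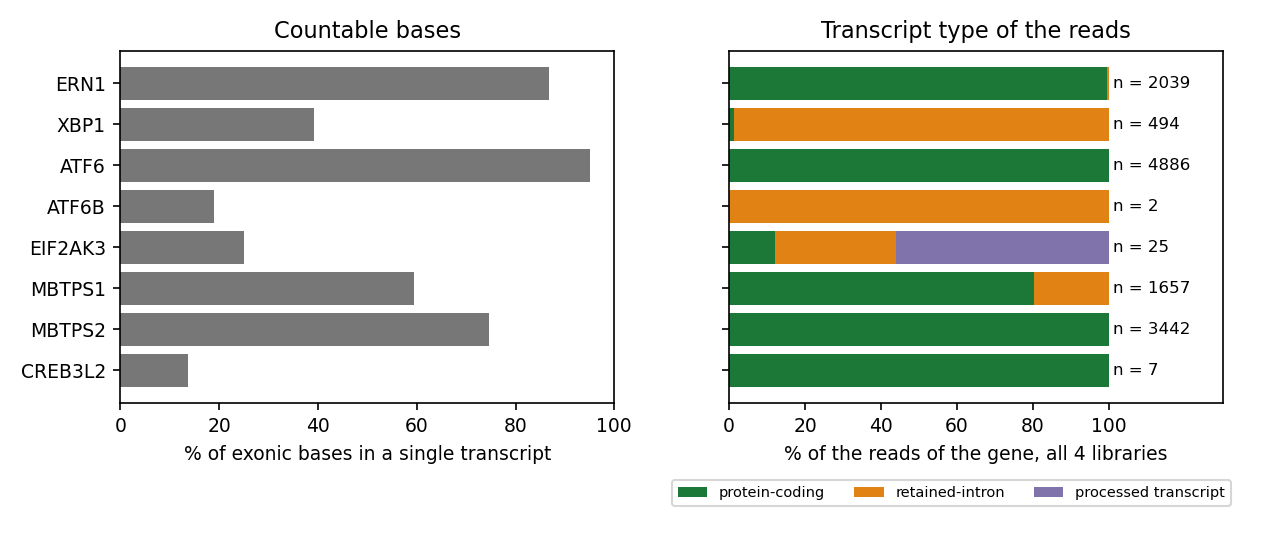
Left, the share of each gene's exonic bases (%) that lie in a single annotated transcript; right, the share of the gene's reads (%) on each transcript type over all 4 libraries, with the number of reads. The 3 genes with the smallest countable share have 25 reads or fewer, and the XBP1 reads are nearly all on retained-intron transcripts.

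In methylparaben-treated cells, ERN1 was 4.40-fold higher than in ethanol controls, and ATF6 and MBTPS1 were 1.67-fold and 1.66-fold higher. XBP1 was at 1.64-fold without passing the threshold, and MBTPS2 was at 0.861-fold. Of the 8 members 5 had enough reads to be tested, and 3 of these 5 passed an adjusted p of 0.05, all 3 higher, by edgeR's quasi-likelihood test with Benjamini-Hochberg adjustment over the 8055 genes tested. Over all genes tested, 36.9% passed, 18.5% higher and 18.4% lower. The median log2 fold change of all genes was 0.03. Of all genes tested, 5.26% had a larger log2 fold change than ERN1, 25.45% than ATF6, 25.7% than MBTPS1 and 26.1% than XBP1. The libraries of the groups did not overlap for any of the 5 tested members, with 4 above and 1 below the ethanol libraries, against 35.5% of all genes above and 35% below (70.5% in all).

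**Figure D2:**
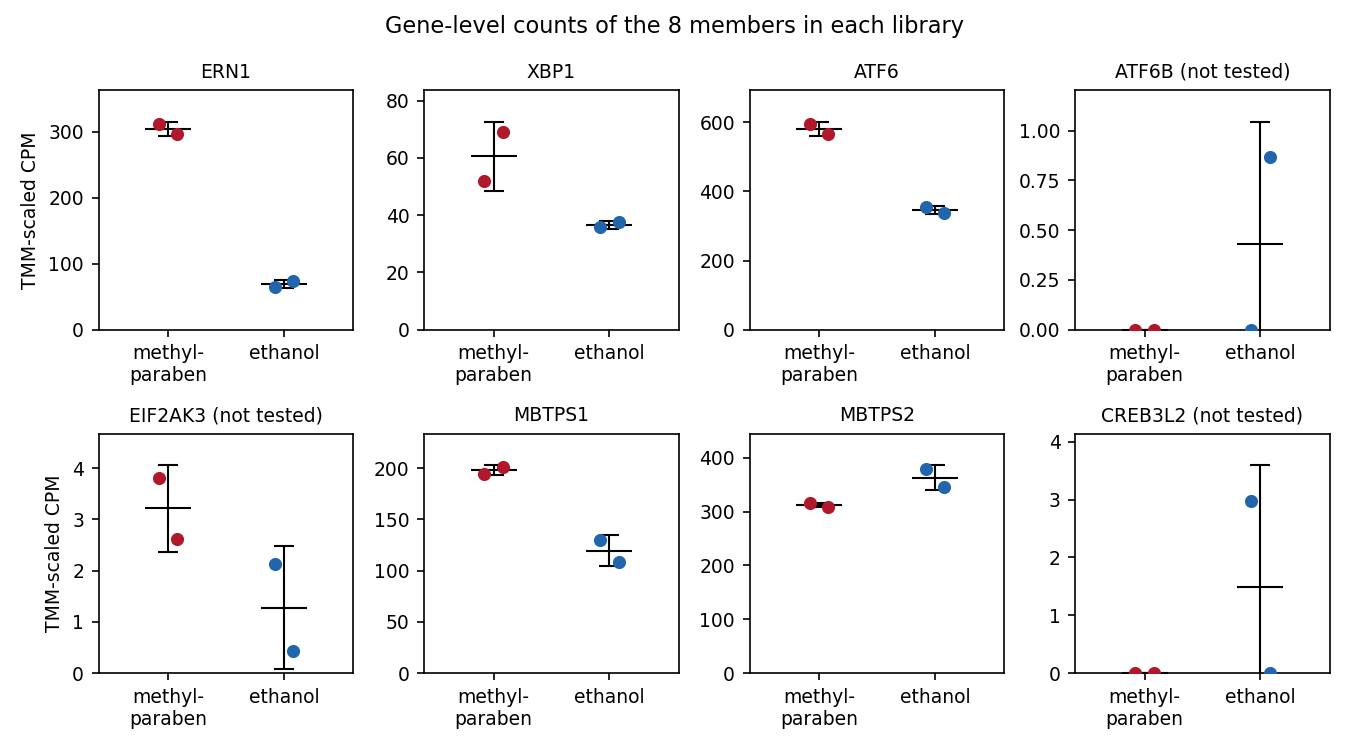
TMM-scaled CPM (trimmed mean of M values) for each gene in the 2 methylparaben (red) and 2 ethanol (blue) libraries, with the group mean and SD in black (cut at 0). ERN1, XBP1, ATF6 and MBTPS1 are higher in both methylparaben libraries, MBTPS2 is slightly lower, and the genes marked as not tested lie below 4 CPM.

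ERN1 encodes the IRE1 sensor and lies on the minus strand of chromosome 17 at 64039142 to 64130819 (GRCh38). It had 1148 and 568 reads in the methylparaben libraries and 153 and 170 in the ethanol libraries. This is 312 and 297 CPM with methylparaben, against 65.1 and 73.6 CPM with ethanol. Both treated libraries stand well above both controls, and the spread within each group is small beside the gap. The mean was 305 ± 10.7 CPM in methylparaben and 69.3 ± 6.02 CPM in ethanol libraries (SD, n = 2 each). The log2 fold change was 2.14 ± 0.18 (SE), with an edgeR adjusted p of 7.54e-05 and a 95% interval of 3.32- to 5.82-fold. Of the 8055 genes tested, 5.26% had a larger log2 fold change. ERN1 passed in every alternative run, with log2 fold changes of 1.57 to 2.30 and adjusted p values up to 0.0137.

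Most ERN1 reads lie on ERN1-201, a coding transcript of 22 exons. Its 6461 countable bases comprise 1612 of coding sequence and 4849 of the 3′ UTR, and it had 1077 and 529 reads in methylparaben, against 130 and 151 in ethanol libraries. It rose by 2.22 ± 0.19 on the log2 scale (adjusted p = 6.49e-05 over 9167 transcripts, of which 39.4% passed, 20.3% higher and 19.1% lower, by the same edgeR test); of 4662 protein-coding transcripts 40% passed, 14.7% higher and 25.4% lower. A second protein-coding transcript, ERN1-208, is a single exon that runs over the first exon of ERN1-201. Of its 1899 countable bases 1224 lie inside an intron of another coding ERN1 transcript. It had 71 and 38 reads in methylparaben and 15 and 19 in ethanol libraries, a log2 fold change of 1.39 ± 0.41 (adjusted p = 0.0216). That call was lost with DESeq2 (adjusted p = 0.149), without ethanol replicate 1 (0.126) and without ethanol replicate 2 (0.0596). The log2 fold changes of the 2 transcripts were not distinguishable (diffSpliceDGE, adjusted p = 0.150). In the authors' deposited table, ERN1-201 has an adjusted p listed as 0 and ERN1-208 one of 0.0515.

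Among 5831 protein-coding genes, those whose mean-centred log2 CPM over the 4 libraries lay nearest to ERN1 were HERPUD1, a component of ER-associated degradation, and SCAF4, at Euclidean distances of 0.0737 and 0.0967 log2 units. HERPUD1 had 108 and 109 CPM in methylparaben and 23.4 and 25.5 CPM in ethanol libraries. SCAF4 had 58.2 and 50.8 CPM, against 11.5 and 12.98 CPM. With 2 libraries per group, such distances, here and for the members below, reflect mostly the fold change. The log2 fold change was 2.15 for both genes and 2.14 for ERN1, and common regulation was not tested.

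XBP1, the mRNA that IRE1 cuts, lies on the minus strand of chromosome 22 at 28794555 to 28800597. The deposited counts cannot show the cut. GENCODE release 29 annotates the 26-base intron in 2 XBP1 transcripts, XBP1-202 and XBP1-207, at positions that differ by 2 bases. Neither transcript has a countable base, and neither had a read. The sequences around the intron of XBP1-207 (chr22:28796104-28796169, minus strand, GENCODE release 29 transcripts, GRCh38) are shown with the intron in capitals, since this is where IRE1 acts.
XBP1-201 unspliced: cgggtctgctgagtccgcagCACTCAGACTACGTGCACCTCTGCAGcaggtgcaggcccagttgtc
XBP1-207 spliced: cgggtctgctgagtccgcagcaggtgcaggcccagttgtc

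The reads of XBP1 lie instead on a transcript with a retained intron. XBP1-206 had 188 and 126 reads in methylparaben and 84 and 86 in ethanol libraries, all on 1 stretch of 853 bases (28796193 to 28797045) that lies within an intron of the coding transcripts. XBP1-204, which is protein-coding with a start of its own, had 1 and 4 reads, against 0 and 1. XBP1-205, also with a retained intron, had 2 and 2 reads, against 0 and 0. Retained-intron transcripts thus held 99.5% and 97.0% of the XBP1 reads in methylparaben and 100% and 98.9% in ethanol libraries. The gene sum is thus read almost wholly from intron sequence of the coding transcripts, and the XBP1 mRNA cut by IRE1 was not measured.

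**Figure D3:**
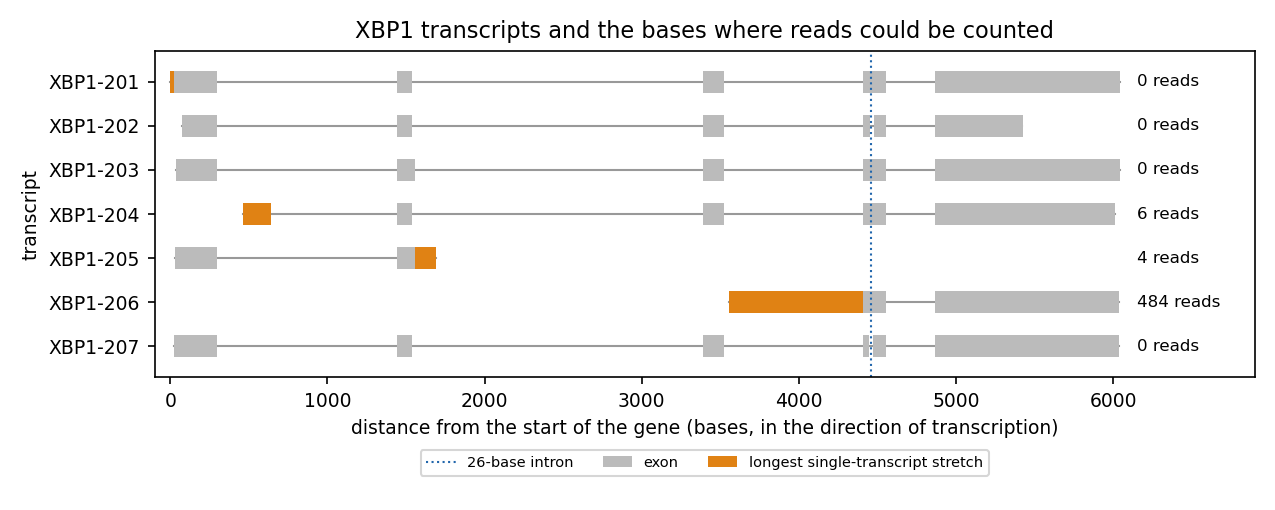
The 7 annotated XBP1 transcripts drawn to scale by distance from the start of the gene (bases), with exons in grey, the longest single-transcript stretch of each in orange and the position of the 26-base intron as a dotted line. The 484 reads of XBP1-206 lie on its orange stretch, and the transcripts that lack the 26 bases have none.

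With this limit, XBP1 had 52.0 and 69.1 CPM in methylparaben, against 35.7 and 37.7 CPM in ethanol libraries. The treated libraries lie above the controls but differ among themselves by more than the controls do. The log2 fold change was 0.71 ± 0.26, with an unadjusted p of 0.0211 and an adjusted p of 0.0552 by edgeR, and the 95% interval of the fold was 1.10 to 2.45. The outcome was the same in 12 of 15 alternatives, among them DESeq2 (adjusted p = 0.172) and limma voom (0.0675). In edgeR it passed with upper quartile scaling (0.0483) and with the crossed replicate block chosen after seeing the data (0.0407). It also passed without methylparaben replicate 1, at a log2 fold change of 0.91, against 0.53 without methylparaben replicate 2. XBP1-206 alone was at 0.65 ± 0.26 (edgeR adjusted p = 0.0729), and the authors' deposited table gives it an adjusted p of 0.579. Retained-intron transcripts as a class were higher after methylparaben, with a median log2 fold change of 1.02 over 1545 tested, of which 45.7% passed, 39.7% higher and 6.02% lower. Such transcripts held 4.22% and 3.95% of all reads in methylparaben and 2.73% and 2.73% in ethanol libraries. The value of XBP1-206 is below the median of its class, and the part of that shift in the XBP1 value was not tested.

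XBP1 is known as a target gene of ATF6, which with the factor NF-Y binds the ER stress response element (ERSE), CCAAT and CCACG with 9 bases of any kind between them. The 250 bases before the first-listed of 2 RefSeq starts of XBP1 hold 1 exact match, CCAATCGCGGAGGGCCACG, 52 to 34 bases before the start. Of 35116 RefSeq windows of the same length, 26 (0.0740%) hold such a match on either strand. No other window of the 8 members did. The windows of XBP1, of the sensor that cuts it and of ATF6 are shown for comparison (RefSeq, GRCh38.p14, 5′ to 3′ on the strand of the gene), with matches to ERSE and to CCAAT or its reverse complement ATTGG in capitals. Each ERSE match also begins with a CCAAT match.
XBP1 (chr22:28800570-28800819, minus strand): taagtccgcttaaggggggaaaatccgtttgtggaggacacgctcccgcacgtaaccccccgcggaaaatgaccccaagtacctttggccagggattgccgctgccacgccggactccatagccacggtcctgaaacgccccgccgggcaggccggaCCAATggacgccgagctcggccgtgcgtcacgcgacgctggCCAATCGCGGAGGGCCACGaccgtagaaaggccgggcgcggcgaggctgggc
ERN1 (chr17:64130145-64130394, minus strand): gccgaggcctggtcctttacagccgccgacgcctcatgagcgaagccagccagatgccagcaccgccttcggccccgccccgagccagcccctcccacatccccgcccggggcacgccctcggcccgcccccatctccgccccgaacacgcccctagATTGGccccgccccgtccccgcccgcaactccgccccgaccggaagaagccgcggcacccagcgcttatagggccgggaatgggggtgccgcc
ATF6 (chr1:161766070-161766319, plus strand): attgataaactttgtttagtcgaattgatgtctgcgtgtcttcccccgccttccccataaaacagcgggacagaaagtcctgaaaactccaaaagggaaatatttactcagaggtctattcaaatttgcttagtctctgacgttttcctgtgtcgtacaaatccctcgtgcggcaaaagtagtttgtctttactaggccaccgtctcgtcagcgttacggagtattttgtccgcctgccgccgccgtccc
The ERN1 window, at 75.2% G and C, holds 1 CCAAT match, 93 to 89 bases before the start, and 32.0% of all windows hold one. The ATF6 window, at 47.2% G and C, holds none. The second ER stress element (ATTGG and CCACG with 1 base between them), the XBP1 site TGACGTGG and the composite ATF4 site TGATGCAA, searched on both strands, are in none of the member windows, and in 0.0513%, 0.612% and 0.772% of all windows. The cyclic AMP element TGACGTCA is in the CREB3L2 window and in 1.65% of all windows. A match describes the letters of a window and not binding.

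ATF6 encodes the sensor that becomes a transcription factor, and lies on the plus strand of chromosome 1 at 161766294 to 161964070. It is the best-read member, with 2188 and 1080 reads in methylparaben and 836 and 782 in ethanol libraries. This is 595 and 565 CPM, against 356 and 338 CPM. The groups do not overlap. The mean was 580 ± 21.3 CPM in methylparaben and 347 ± 12.1 CPM in ethanol libraries (SD, n = 2 each). The log2 fold change was 0.74 ± 0.16 (edgeR adjusted p = 0.00600), a fold of 1.31 to 2.14 at 95%. It missed the threshold without ethanol replicate 1 (adjusted p = 0.0596) and without ethanol replicate 2 (0.0609), at log2 fold changes of 0.76 and 0.72. Nearly all of its reads were on the 16-exon coding transcript ATF6-201, which was at 0.72 ± 0.16 (adjusted p = 0.00623), and whose 7112 countable bases include 1626 of coding sequence and 5419 of the 3′ UTR. The authors' deposited table gives ATF6-201 an adjusted p of 2.12e-07. The gene AL391825.1 overlaps ATF6. Exonic bases shared by overlapping genes are not countable, and beyond annotated exons reads of such genes cannot be told apart without strand. The 2 protein-coding genes nearest to ATF6 in pattern over the 4 libraries were PRRC1 and AFF4, at distances of 0.0477 and 0.0575 log2 units.

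MBTPS1 encodes the site-1 protease, a serine protease of the Golgi that makes the first cut in ATF6 and in the sterol regulators SREBF1 and SREBF2. It lies on the minus strand of chromosome 16 at 84053761 to 84116906. The gene had 715 and 385 reads in methylparaben and 306 and 251 in ethanol libraries, or 195 and 201 CPM, against 130 and 109 CPM. Both treated libraries were above both controls. The log2 fold change was 0.73 ± 0.18 (edgeR adjusted p = 0.0123), a fold of 1.25 to 2.20 at 95%. The call was lost without ethanol replicate 1 (adjusted p = 0.0506), without ethanol replicate 2 (0.125) and with retained-intron transcripts left out (0.0546, at a log2 fold change of 0.53). It was kept with protein-coding transcripts only (0.0212, at 0.58). The gene AC040169.3 overlaps MBTPS1. The genes nearest in pattern were AGO1 and ZDHHC24, at 0.0268 and 0.0354 log2 units. ZDHHC24 was low, at 8.43 and 8.90 CPM in methylparaben and 5.53 and 4.33 CPM in ethanol libraries, and did not pass (edgeR adjusted p = 0.234).

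The log2 fold changes of the MBTPS1 transcripts were unequal. MBTPS1-201, the 23-exon coding transcript, had 564 and 266 reads in methylparaben and 271 and 230 in ethanol libraries, a log2 fold change of 0.42 ± 0.19 that did not pass (adjusted p = 0.105). The retained-intron transcript MBTPS1-205 had 119 and 91 reads, against 28 and 15, and rose by 2.08 ± 0.40 (adjusted p = 0.00317). The retained-intron transcript MBTPS1-204 had 32 and 28 reads, against 7 and 6, and rose 3.99-fold (95% interval 1.65 to 9.63, adjusted p = 0.0199). A test of unequal change among the 3 transcripts passed (diffSpliceDGE, adjusted p = 0.00302), as it did for 40.6% of the 1172 genes with at least 2 tested transcripts. It was lost without ethanol replicate 2 (adjusted p = 0.0542) and with no filter on low counts (0.0626). Without methylparaben replicate 2 it was also lost (0.107). The call of MBTPS1-204 was lost with DESeq2 (adjusted p = 0.125), with limma voom (0.0533), without methylparaben replicate 2 (0.147), without ethanol replicate 1 (0.0836) and without ethanol replicate 2 (0.0871). Retained-intron transcripts held 21.1% (95% exact binomial interval 18.2 to 24.3) and 30.9% (26.3 to 35.8) of the MBTPS1 reads in methylparaben libraries, and 11.4% (8.10 to 15.5) and 8.37% (5.25 to 12.5) in ethanol libraries. In the authors' deposited table, the adjusted p is 0.572 for MBTPS1-201 and 1.28e-05 for MBTPS1-205.

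**Figure D4:**
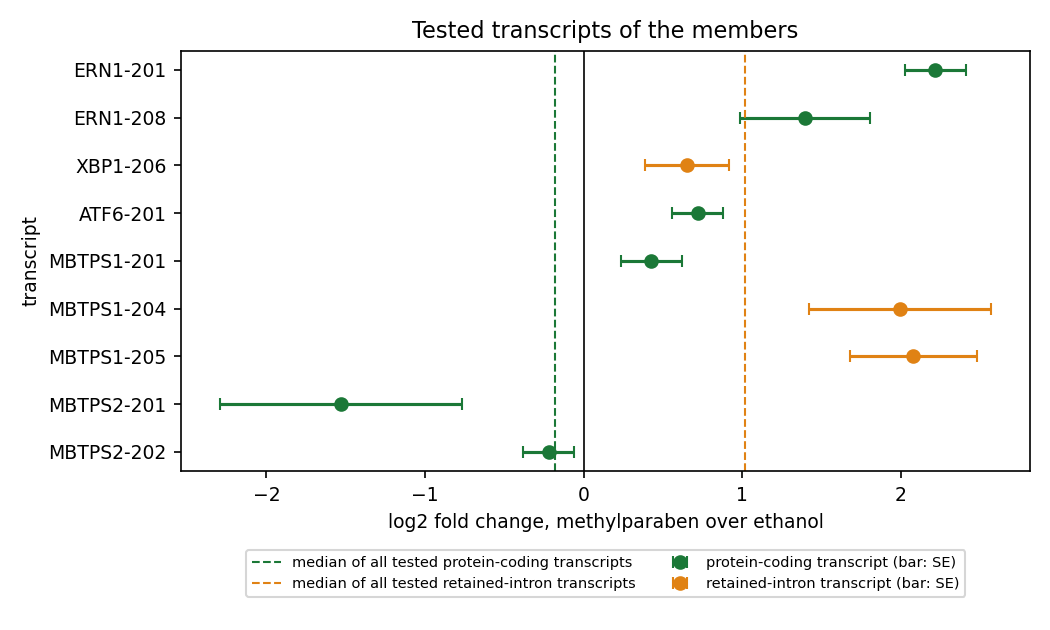
Log2 fold change of methylparaben over ethanol (points, with SE) for the 9 member transcripts with enough reads, coloured by transcript type, with the median of all tested transcripts of each type as a dashed line. ERN1-201 and the retained-intron transcripts of MBTPS1 lie at about 2, and the coding transcripts of ATF6, MBTPS1 and MBTPS2 lie between -1.53 and 0.72.

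MBTPS2 encodes the site-2 protease, a metalloprotease that cuts within the membrane after the site-1 protease has acted, and lies on the plus strand of the X chromosome at 21839636 to 21885424. It had 1159 and 591 reads in methylparaben and 892 and 800 in ethanol libraries, or 315 and 309 CPM, against 379 and 346 CPM. The treated libraries were slightly below the controls. The log2 fold change of -0.22 ± 0.16 did not pass (unadjusted p = 0.209, edgeR adjusted p = 0.317), and the 95% interval of the fold, 0.672 to 1.10, includes 1. It was the only tested member with a negative log2 fold change. The 11-exon coding transcript MBTPS2-202 carried most reads and was at -0.22 ± 0.16 (adjusted p = 0.303). MBTPS2-201, a coding transcript that ends within an intron of MBTPS2-202, had 3 and 11 reads, against 18 and 20, a log2 fold change of -1.53 ± 0.76 (adjusted p = 0.134). Its 2 treated libraries differ widely, and without methylparaben replicate 2 the value was -3.26 with an adjusted p of 0.0136, while without methylparaben replicate 1 it was -0.51 with an adjusted p of 0.629. The authors' deposited table gives it an adjusted p of 0.0213. The gene YY2 overlaps MBTPS2.

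Between members, levels can be set side by side only per countable length. As CPM per kilobase of countable bases, MBTPS1-201 stood at 202 and 185 in methylparaben and 155 and 134 in ethanol libraries. MBTPS2-202 stood at 93.3 and 91.3, against 113 and 103. ATF6-201 stood at 83.4 and 80.1, against 50.9 and 48.5. ERN1-201 stood at 45.2 and 43.3, against 8.71 and 10.3. The order was the same in both groups, with no overlap between neighbours, and the closest neighbours were MBTPS2-202 and ATF6-201 in methylparaben libraries. The countable bases of MBTPS1-201 are 687 of coding sequence and 71 of the 5′ UTR, while those of the other transcripts are mostly 3′ UTR. Those of MBTPS1-201 lie on 5 stretches, the longest of 258 bases, while the longest stretches of the other transcripts are 2992 to 5625 bases. The parts of these differences in the order were not tested.

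The remaining members had too few reads for a test. EIF2AK3, on the minus strand of chromosome 2 at 88556741 to 88627576, had 14 and 5 reads in methylparaben and 5 and 1 in ethanol libraries. The group totals were 19 against 6 reads. Scaled by the total counts of the groups, their ratio was 2.47 with a 95% counting interval of 0.949 to 7.56. No difference was thus detectable at this depth. Of the 25 EIF2AK3 reads 14 were on a processed transcript, 8 on a retained-intron transcript and 3 on the coding transcript EIF2AK3-203. The countable bases of the processed and retained-intron transcripts lie in introns of coding EIF2AK3 transcripts, as do 184 of the 186 of EIF2AK3-203. The ratio is thus read almost wholly from intron sequence. The longest coding transcript EIF2AK3-201 has 572 countable bases, all on 1 stretch, and 0 reads in all 4 libraries. ATF6B (chromosome 6, 32115264 to 32128253, minus strand) had 0 and 0 reads, against 0 and 2, all on a retained-intron transcript. CREB3L2 (chromosome 7, 137874979 to 138002067, minus strand) had 0 and 0 reads, against 7 and 0. For both genes the values are at or near the limit that 0 counts allow, and the 7 reads of CREB3L2 came from 1 library.

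In the lists of ATF6 and XBP1 targets and of the integrated stress response, more genes rose than fell. The lists were chosen with earlier results of these data known, and their counts are set against the 18.5% of all tested genes called higher and the 18.4% called lower. Of 16 chaperone and folding genes under ATF6 and XBP1, 11 were tested, 6 rose and 1 fell (median log2 fold change 1.62). HSPA5, the chaperone BiP that holds the sensors inactive, had 48057 and 54348 CPM in methylparaben and 3816 and 3523 CPM in ethanol libraries (log2 fold change 3.80 ± 0.22, adjusted p = 1.43e-05). DNAJB9, a co-chaperone of BiP that restrains IRE1, had 561 and 434 CPM, against 130 and 161 CPM (log2 fold change 1.77 ± 0.20, adjusted p = 0.000250). PDIA3, a disulfide isomerase named because it was the only gene of the list that fell, was at -0.84 ± 0.28 (adjusted p = 0.0402). No gene of the list passed as lower with DESeq2, with the replicate block, with no filter on low counts, with limma on FPKM, with retained-intron transcripts left out or with protein-coding transcripts only. The same held without methylparaben replicate 1, without ethanol replicate 1 and without ethanol replicate 2. Of 11 ER-associated degradation genes, 8 were tested and 4 rose (median 1.43). With retained-intron transcripts left out 3 rose of 5 tested, and with protein-coding transcripts only 4 rose of 5. SEL1L, the scaffold of the HRD1 ubiquitin ligase, had 1692 and 1459 CPM, against 565 and 552 CPM. It rose by 1.50 ± 0.17 (edgeR adjusted p = 0.000250). Among the 4 that rose, retained-intron transcripts held 70.7% of the HERPUD1 reads, 100% of SYVN1, 0.324% of EDEM1 and 0.276% of SEL1L.

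Of 19 genes of the PERK branch and the wider integrated stress response, 15 were tested and 8 rose, with a median of 1.12. The listed genes that were not tested are ATF4, DDIT3, CHAC1 and NUPR1. The list holds other eIF2-alpha kinases beside PERK targets, and EIF2AK1, one such kinase, is among the 8. ASNS, asparagine synthetase and a target of ATF4, had 389 and 334 CPM in methylparaben and 34.9 and 45.01 CPM in ethanol libraries, and retained-intron transcripts held 64.7% of its reads. PPP1R15B, a subunit of the phosphatase that acts on eIF2-alpha, had 1543 and 1451 CPM, against 410 and 486 CPM, with none on such transcripts (log2 fold change 1.74 ± 0.17, adjusted p = 0.000139).

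The IRE1 partners were mixed. Of 13 listed, 7 were tested, 3 rose and 2 fell, and with retained-intron transcripts left out 2 rose and 1 fell of 5. With limma on log2(FPKM + 0.1) 2 rose and 1 fell of 7, and with protein-coding transcripts only 2 rose and 1 fell of 6. The list shares HSPA5 with the chaperones. FAM98B, a subunit of the tRNA ligase complex that joins the cut XBP1 mRNA, fell to 209 and 172 CPM in methylparaben, against 432 and 504 CPM in ethanol libraries (-1.29 ± 0.18, adjusted p = 0.000686). RTCB, the ligase itself, named after its value was seen, had 116 and 231 CPM, against 69.7 and 54.5 CPM (1.47 ± 0.31, adjusted p = 0.00543). Subunits of the same complex were therefore found on both sides. Of 6 mRNAs known as cleaved by IRE1, 2 were tested and 1 fell, the matrix protein gene SPARC, with 5.99 and 3.14 CPM, against 43.4 and 29.9 CPM (adjusted p = 0.000839), and 2 fell without methylparaben replicate 2.

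Relatives and other substrates of the proteases were poorly read. Of 5 genes listed with the CREB3 family 1 was tested, CREBZF, a leucine zipper factor. CREBZF had 285 and 245 CPM in methylparaben and 125 and 129 CPM in ethanol libraries (1.06 ± 0.18, edgeR adjusted p = 0.00172). The other listed genes, CREB3, CREB3L1, CREB3L3 and CREB3L4, were not tested, so the CREBZF value does not describe them. Of 8 other substrates and partners of the site proteases, 5 were tested and 1 rose. This was INSIG1, which holds the SREBP complex in the ER, with 55 reads in methylparaben and 2 in ethanol libraries. Scaled by the total counts of the groups, the ratio was 21.5 with a 95% counting interval of 5.67 to 182. Retained-intron transcripts held 100% of the INSIG1 reads. With such transcripts left out 0 of 4 passed by edgeR (1 at an unadjusted p below 0.05), and without methylparaben replicate 1 or with limma on FPKM 2 passed.

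**Figure D5:**
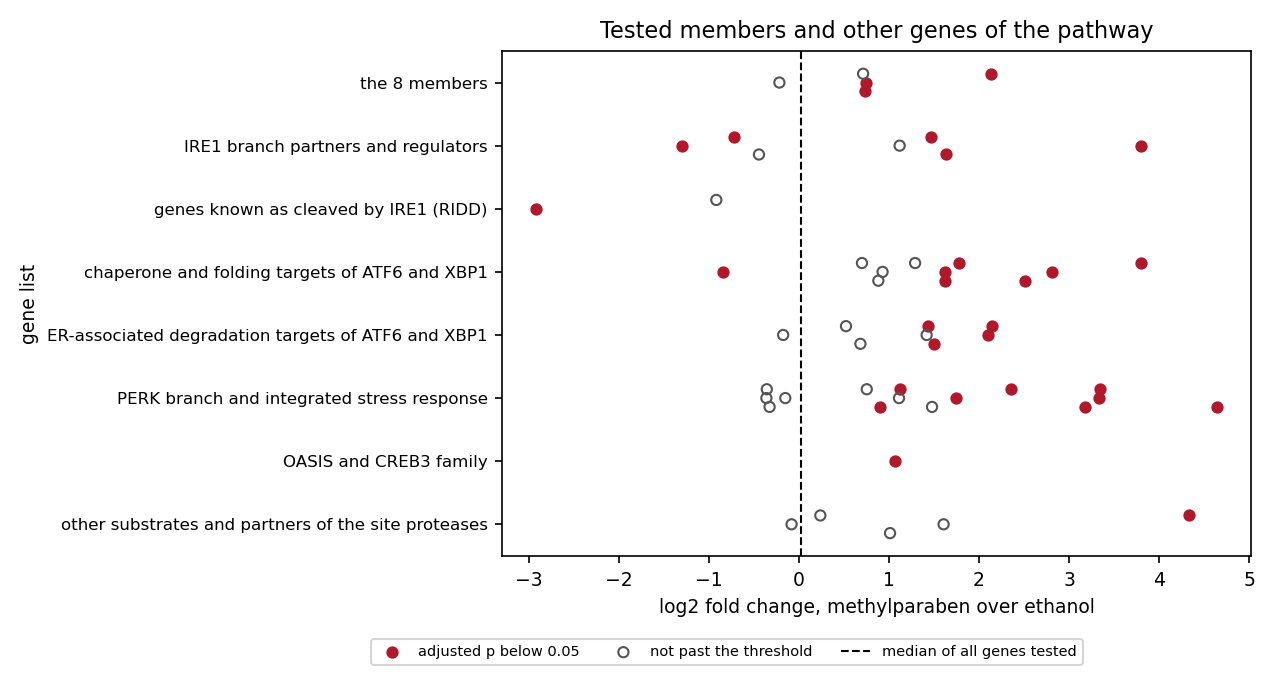
Log2 fold change of methylparaben over ethanol for each tested gene of the 8 members and of 7 lists of pathway genes, filled where the edgeR adjusted p is below 0.05, with the median of all genes tested (0.03) as a dashed line. Most filled points of the chaperone, degradation and PERK lists lie above 1, and the IRE1 partners lie on both sides of 0.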

How the data were processed

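RNA of H1299 cells, taken on poly-A capturing beads per the labels, was sequenced in 4 libraries. The authors deposited raw counts per annotated transcript, with no normalisation, and FPKM values and log2 of FPKM plus 1, per the file headers. Also deposited are the authors' p-value and its adjusted form for each transcript, with no test named. Per the submitters' processing notes the build is GRCh38, and DESeq2, limma and edgeR are named without role; the aligner, like the counter, is not given in the sources used here. All 206601 transcripts were found in GENCODE release 29, and none of the 70749 without a base of its own had a read, so counts stand for single-transcript bases regardless of strand.

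The planned design assumed a gene table, so counts were first summed per gene ID, filtered with filterByExpr (minimum count 10, minimum total 15), scaled by TMM and tested two-sided in edgeR 4.0.16 (R 4.3.3; glmQLFit, glmQLFTest) over 8055 genes, and likewise over 9167 transcripts. The SE is the log2 fold change over the square root of F. Transcript usage was tested with diffSpliceDGE. All 3 steps were tested on simulated data in which few features changed, each by the same fold. In the real data 36.9% of genes passed, so the simulation does not show the error rates here. Named from each list were the 2 called genes with the smallest p. Members and lists were chosen with earlier results of these data known. Alternatives used other scalings, DESeq2 1.42.0, limma 3.58.1, other filters, other transcript sets, a replicate block and leaving out each library. With a library left out, 1 sample stands for a group and is assumed to vary like the other group.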

Additional observations from a re-analysis of the deposited data

How the results depend on the processing

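The number of members called, 3, was 2 to 4 over the alternatives that kept all libraries and 1 to 4 when a library was left out. Without ethanol replicate 1 or ethanol replicate 2 only ERN1 passed. None of the 5 tested members and 9 tested member transcripts changed direction in the alternatives run. Over all genes, 2976 calls became 1899 with limma on log2(FPKM + 0.1), 1867 with protein-coding transcripts only (4487 genes tested) and 1677 to 3095 with a library left out, lowest without ethanol replicate 1. Of 9 member transcripts 5 were called, against 3 with DESeq2 and 2 to 6 with a library left out. Over all transcripts 3613 calls became 2243 with DESeq2 and 1841 to 3334 with a library left out. Unequal transcript change was called for 1 member, for 0 of 6 with no filter (2 at an unadjusted p below 0.05) and for 0 to 1 with a library left out, by diffSpliceDGE, the only tool run. For comparison, the main fit called 39.4% of all 9167 transcripts tested, 20.3% higher and 19.1% lower. Unequal transcript change passed for 1 of 3 tested members in the main fit, against 40.6% of the 1172 genes tested for it. Where not stated, the cause was not tested.

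The labels number the replicates alike in both groups, and same-numbered deviations correlated at -0.150 across genes. With 2 libraries per group this value cannot decide whether the numbers mark pairs. The main fit did not take them as pairs. With the replicate block 3 members, 5 member transcripts and 2488 genes were called, and with the crossed replicate block, chosen after seeing the data, 4 members, 5 member transcripts and 3292 genes. Scaling by library size only moved the median log2 fold change of all genes by -0.11, and the 3 member calls held. EIF2AK3, ATF6B and CREB3L2 had 25 reads or fewer each, too few for a test, and the parts of depth, countable sequence and expression in this were not tested.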
